A study of Mus musculus with 8 samples.

Results

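The comparison described here set the descending aorta of newborn mice lacking Lox (KO) against the descending aorta of wild-type (WT) mice. It rests on 4 of the 8 arrays in the study, 2 of KO and 2 of WT tissue, and each array measured the total RNA of 1 pool made from 8 pups. All pups, KO and WT, were of the albino C57BL/6J background and were taken at p0, and the labels bound the descending segment by the vena cava and the diaphragm. The other 4 arrays held ascending aorta of the same genotypes, 2 pools each, and entered the fit to estimate the spread. The labels do not tell how the Lox allele was made or whether both segments came from the same pups. The genes were those measured by a probe set with exactly 1 gene symbol, 1 probe set per gene, and 16638 of 22184 such genes were bright enough to be tested. Array values are log2 levels (RMA), so a difference of 1 is a doubling, and with n = 2 pools per group each p-value measures the spread between pools, which may be partly technical.

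Lysyl oxidase is a secreted copper enzyme that oxidizes lysine side chains of tropoelastin and collagen, and the aldehydes so formed join neighbouring molecules into insoluble fibres. The wall of the aorta is built of elastic lamellae alternating with smooth muscle cells, which make both the elastin and much of the collagen, and the wall is laid down around birth as arterial pressure rises. Mice without the enzyme are known to die around birth with aneurysms and a ruptured diaphragm or vessel wall. The comparison asks how the RNA of the descending wall differs when that crosslinking enzyme is missing.

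Lox read 11.41 and 11.24 on the WT arrays and 8.56 and 8.51 on the KO arrays. Every KO array lay below every WT array, and it fell by 2.80 on the log2 scale (SE 0.11, limma adjusted p = 4.42e-05), or 6.94-fold. The position of these probes within the altered gene is unknown from the labels, so the signal left on the KO arrays cannot be read as transcript of any one kind. Of the related enzymes tested, Loxl3 differed by 0.47 (SE 0.10), the closest to the threshold at a limma adjusted p of 0.0505. Loxl1, needed for elastic fibre renewal in adult tissue, was 10.55 and 10.45 on the WT arrays and 10.82 and 10.83 on the KO arrays (difference 0.32, SE 0.12, limma adjusted p = 0.196). Loxl4 differed by 0.19 (SE 0.10, limma adjusted p = 0.343). Thus the deleted gene itself was the only 1 of 4 tested members to pass, and the other 3 were higher in KO without passing. Loxl2 had only probe sets shared with other genes and was not tested.

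Defining markers of the labelled tissue were present on every array. Acta2 (smooth muscle actin) read 12.48 to 12.60 over the 4 descending arrays, Myh11 (smooth muscle myosin) 10.67 to 10.92 and Cnn1 (calponin) 11.32 to 11.53, against array medians of 5.11 to 5.19 over all probe sets. Replicate arrays correlated across genes at 0.992 for WT and 0.990 for KO descending tissue (Pearson, a description over genes that are not independent replicates). Arrays also differed in the markers of other tissues, described near the end: hepatocyte transcripts were highest on KO pool 2, surfactant transcripts on WT pool 2 and skeletal muscle transcripts on KO pool 1. For arrays there is no read depth, and their number limits the precision.

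Between KO and WT descending aorta, 380 of 16638 genes passed an adjusted p of 0.05 (2.28%), 243 of them higher in KO (1.46%) and 137 lower (0.823%). At an unadjusted p under 0.05 there were 3122. The median change among the 380 was 1.65-fold, 300 differed by at least 1.5-fold, and 77 by at least 2-fold, 57 of these higher and 20 lower. On all 380 the KO and WT arrays did not overlap, but with 2 arrays a side that was also true of 51.1% of all genes, 25.6% with KO higher and 25.5% with KO lower. Statements below that the pools of a called gene were apart describe its values and add no support to the call. The median difference over all genes was -0.01, and the count of each gene list below is to be read beside the shares called above. Left-out arrays changed the count by far more than 1.5 times: 20 genes passed without WT pool 1, 48 without WT pool 2, 73 without KO pool 1 and 63 without KO pool 2. For that reason most gene lists with called members are also given with their count under these 4 fits, in the order WT pool 1, WT pool 2, KO pool 1, KO pool 2. Such a count can include other members than those called with all arrays. Each of these fits leaves 1 array in its group, so that group adds nothing to the estimate of spread. A count can then rise because a difference between 2 pools has left that estimate. In bulk tissue a lower level from fewer cells of a type and one from less RNA per cell cannot be told apart.

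**Figure D1:**
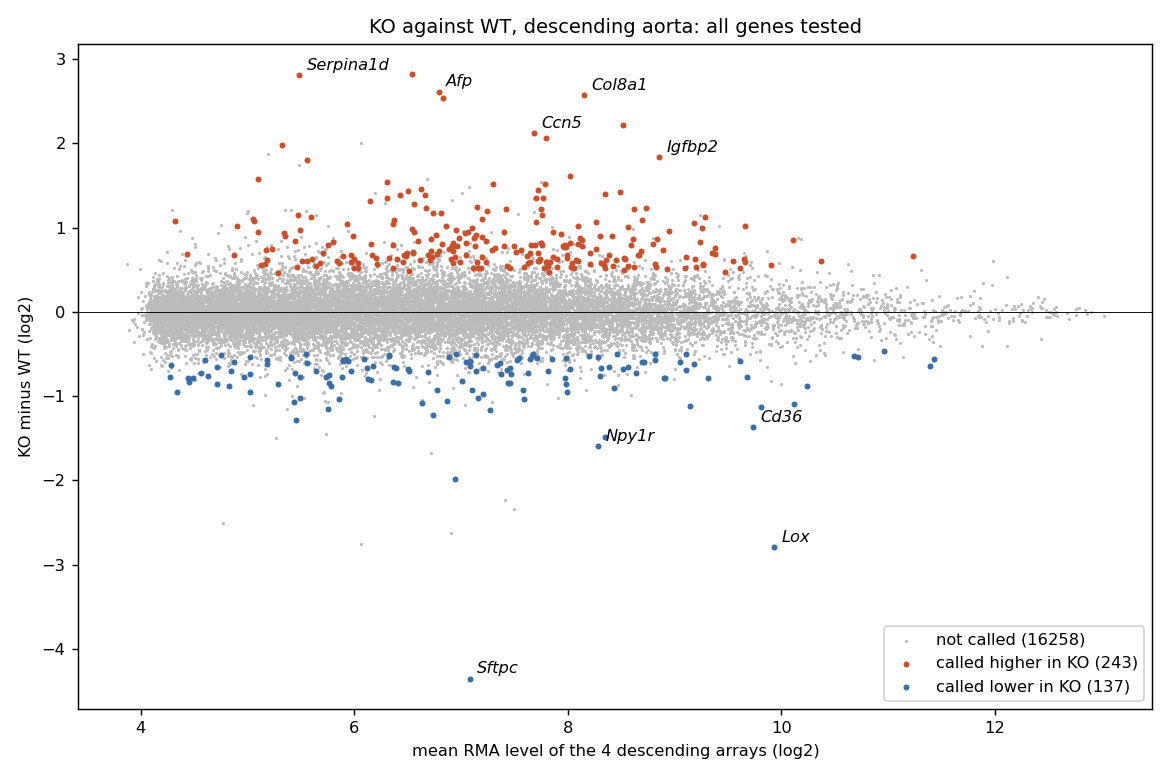
Each point is 1 of the 16638 genes tested, at its mean RMA level over the 4 descending arrays (x axis, log2) and its KO minus WT difference (y axis, log2). The 243 genes called higher are orange, the 137 called lower are blue and the others grey. Lox at -2.80 and Sftpc at -4.35 are the lowest called genes.

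Genes of the extracellular matrix were called in both directions. Col8a1 encodes a short-chain collagen of the subendothelium that vascular muscle makes when it migrates or is injured. Its levels were 7.02 and 6.72 on the WT arrays and 9.61 and 9.27 on the KO arrays, so both KO pools exceeded both WT pools, and the rise was 2.57 (SE 0.22, limma adjusted p = 0.00407), 5.94-fold. It was 1 of 16 tested short-chain, beaded and fibril-associated collagens to pass, and it passed in each of the 4 fits with an array left out. Col11a1, a minor fibrillar collagen that helps set fibril diameter, was 7.11 and 7.17 on the WT arrays and 8.43 and 8.30 on the KO arrays. It rose by 1.22 (SE 0.11, limma adjusted p = 0.00423), again with both KO pools on 1 side, and was the only 1 of 11 tested fibrillar collagens to pass, in those 4 fits as well. The abundant Col1a1 differed by 0.15 (95% interval -0.09 to 0.39) and did not pass. None of 24 basement membrane genes passed in limma (Lama1, a laminin chain, came closest with adjusted p = 0.0898, and 4 had an unadjusted p under 0.05).

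Of 24 tested collagen folding and processing enzymes, 3 rose and none fell (12.5% called, against 2.28% of all genes), and the list's median difference was 0.19. All 3 were hydroxylases that act on the chains before secretion. P4ha1, a catalytic subunit of prolyl 4-hydroxylase, read 7.70 and 7.76 on the WT arrays and 8.89 and 8.71 on the KO arrays and rose 2.09-fold (limma adjusted p = 0.00517). Plod2, the lysyl hydroxylase of the collagen telopeptides, whose products are the sites Lox oxidizes there, read 8.40 and 8.54 on the WT arrays and 9.54 and 9.32 on the KO arrays. Its rise was 0.96 (SE 0.11, limma adjusted p = 0.00968). The third, P4ha3, rose by 0.57 (SE 0.10, limma adjusted p = 0.037). In all 3 the KO pools lay above the WT pools, as in every gene called higher, and KO pool 1 was the higher of the KO pools. Fkbp14, an endoplasmic reticulum isomerase of collagen, was 7.12 and 7.03 on the WT arrays and 8.04 and 7.53 on the KO arrays and did not pass (adjusted p = 0.0718). With 1 array left out, 0, 2, 1 and 2 of the list passed.

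Elastin itself differed little. Eln, which was not among the genes the naming rule picked and is given because it is the substrate of Lox, read 12.10 and 12.27 on the WT arrays and 12.26 and 12.25 on the KO arrays, with overlapping groups and a difference of 0.07 (95% interval -0.19 to 0.32). Of 20 elastic fibre and microfibril genes 2 rose and none fell, with a list median of 0.15. Ltbp2, a microfibril protein of the latent TGF-beta binding family, read 9.30 and 9.37 on the WT arrays and 9.99 and 9.95 on the KO arrays and rose by 0.63 (SE 0.10, limma adjusted p = 0.0225). Fbn2, the fibrillin of fetal microfibrils, read 8.71 and 8.86 on the WT arrays and 9.53 and 9.33 on the KO arrays and rose by 0.64 (SE 0.13, limma adjusted p = 0.0479). Emilin1, which sits between elastin and the cell, was higher by 0.37 without passing (adjusted p = 0.146). None of the list passed with any 1 descending array left out.

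Matricellular and adhesive glycoproteins moved in both directions, with 3 of 28 higher, 1 lower and a median of 0.02. Ccn5, a CCN protein known to restrain smooth muscle growth, read 6.77 and 6.49 on the WT arrays and 8.90 and 8.59 on the KO arrays. Both KO pools were above the WT pools, and the rise of 4.34-fold (SE 0.20 log2, limma adjusted p = 0.00423) stayed past the threshold without any 1 of the 4 arrays. Thbs1 (thrombospondin 1, an activator of latent TGF-beta) read 8.80 and 8.64 on the WT arrays and 9.99 and 9.70 on the KO arrays and rose 2.18-fold (limma adjusted p = 0.0214). Ccn2, a TGF-beta and stretch responsive CCN protein, read 11.03 and 10.77 on the WT arrays and 11.61 and 11.52 on the KO arrays and rose by 0.67 (limma adjusted p = 0.037), but by 0.33 (adjusted p = 0.235) when the gene's probe sets were averaged. Ecm2, a decorin-like adhesive protein, was the 1 that fell: it read 9.45 and 9.13 on the WT arrays and 8.56 and 8.45 on the KO arrays and was lower by a difference of -0.79 (SE 0.12, limma adjusted p = 0.0258). In the 4 fits with an array left out, 1, 2, 2 and 1 of the list passed.

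Of 33 proteoglycans and hyaluronan genes, 3 rose and 2 fell, and the median was 0.02. The small leucine-rich proteoglycan Fmod (fibromodulin, which binds collagen fibrils and modulates their crosslinking) read 8.02 and 8.10 on the WT arrays and 9.06 and 9.08 on the KO arrays. Both KO pools were above both WT pools, a 2.02-fold rise (SE 0.14 log2, limma adjusted p = 0.0164). Prelp, a related protein that anchors matrix to basement membrane, rose by 0.92 (SE 0.12, limma adjusted p = 0.0125). Sdc3 (syndecan 3) rose by 0.54 (limma adjusted p = 0.0449). Vcan, the large hyaluronan-binding proteoglycan versican, read 10.96 and 10.93 on the WT arrays and 10.41 and 10.43 on the KO arrays and fell by 0.52 (SE 0.10, limma adjusted p = 0.0433). Its partner Hapln1, the link protein, read 8.12 and 7.60 on the WT arrays and 7.0 and 6.38 on the KO arrays. Both of its KO pools were below both WT pools and it fell by 1.17 (SE 0.22, limma adjusted p = 0.0389). Under the left-out fits, 0, 0, 1 and 1 of the list passed.

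Proteases and their inhibitors were split, 2 of 44 higher and 2 lower (9.09% called, against 2.28% of all genes). Adamts8, a secreted metalloprotease, read 5.87 and 5.94 on the WT arrays and 7.37 and 7.34 on the KO arrays. Both KO pools were above both WT pools, and the 2.74-fold rise (SE 0.10 log2, limma adjusted p = 0.00145) passed without any 1 of the 4 arrays. Adamts12 rose by 0.61 (SE 0.10, limma adjusted p = 0.0305). Timp4, the metalloprotease inhibitor typical of heart and vessel, read 9.20 and 8.98 on the WT arrays and 7.71 and 7.50 on the KO arrays and fell 2.79-fold (SE 0.12 log2, limma adjusted p = 0.00407). Pi15, a secreted CAP-family protein listed as a protease inhibitor, read 10.36 and 10.38 on the WT arrays and 9.04 and 9.45 on the KO arrays and fell by 1.13 (SE 0.14, limma adjusted p = 0.0113). The urokinase gene Plau was 7.62 and 7.45 on the WT arrays and 8.51 and 8.02 on the KO arrays, apart but not past the threshold (adjusted p = 0.0991). Leaving out each array in turn, 2, 2, 3 and 3 of the list passed.

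Receptors for matrix rose in 3 of 27 cases and fell in none (median 0.11). Itga11, which pairs with integrin beta 1 as a receptor for fibrillar collagen, read 6.48 and 6.60 on the WT arrays and 8.15 and 7.97 on the KO arrays and rose 2.87-fold (SE 0.13 log2, limma adjusted p = 0.00407). Itga4, a receptor subunit for fibronectin and VCAM1, read 7.62 and 7.93 on the WT arrays and 9.28 and 9.11 on the KO arrays and rose 2.67-fold (SE 0.13 log2, limma adjusted p = 0.00423). Itgb3, the beta chain of the vitronectin receptor, rose by 0.55 (SE 0.11, limma adjusted p = 0.0427). Tln2, the adaptor talin 2, differed by 0.50 and did not pass (adjusted p = 0.0693). Itga11 and Itga4 passed in each of the 4 fits with an array left out, and Itgb3 in none.

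**Figure D2:**
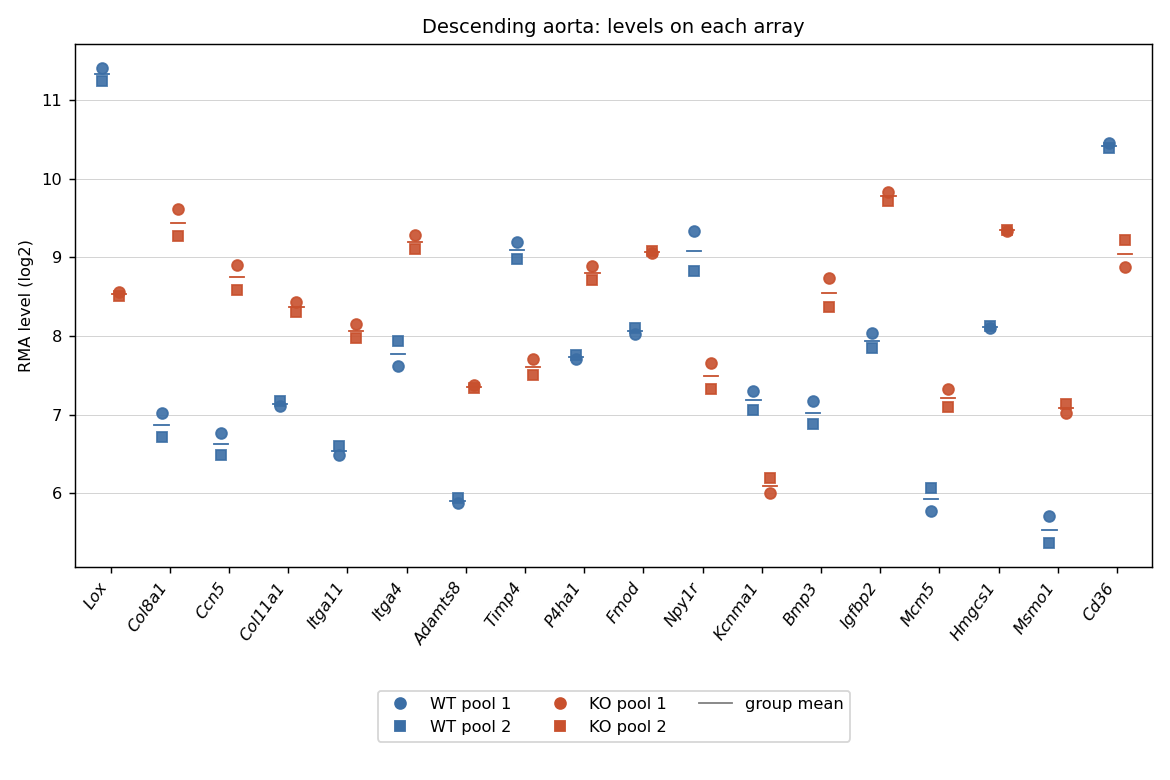
RMA level (y axis, log2) of 18 named genes on each descending array, with WT pools in blue, KO pools in orange, circles for pool 1, squares for pool 2 and a bar at each group mean. For each gene both KO pools lie on the same side of both WT pools, for example Lox at 8.51 and 8.56 in KO against 11.24 and 11.41 in WT.

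Of 30 contractile genes 1 rose and 1 fell (6.67% called, against 2.28% of all genes), and the median difference was -0.01. Acta2 differed by -0.02 (95% interval -0.26 to 0.22) and Tagln (transgelin), chosen like Acta2 for being a defining marker, by -0.10 (95% interval -0.34 to 0.14). Ppp1r14a, the CPI-17 inhibitor of myosin phosphatase, read 8.09 and 8.27 on the WT arrays and 9.17 and 8.92 on the KO arrays and rose by 0.87 (SE 0.14, limma adjusted p = 0.0269). Mustn1, a small musculoskeletal nuclear protein, read 9.81 and 9.60 on the WT arrays and 9.05 and 8.80 on the KO arrays and fell by 0.78 (SE 0.13, limma adjusted p = 0.0327). Neither passed with any 1 array left out. The serum response element known as the CArG box stood in the RefSeq promoter windows of 3 of 25 list members with one (12%), against 1.6% of tested genes.

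Of 21 ion channel genes of vascular muscle 4 fell and none rose (19.05% called, against 2.28% of all genes), with a median of -0.23. Kcnma1, the pore of the large-conductance calcium-activated potassium channel that relaxes arterial muscle, read 7.30 and 7.06 on the WT arrays and 6.00 and 6.19 on the KO arrays, both KO pools below both WT pools. It fell 2.11-fold (SE 0.14 log2, limma adjusted p = 0.0121), but the mean over its probe sets differed by -0.39 and did not pass (adjusted p = 0.147). Its accessory subunit Kcnmb1 had the opposite sign, 7.95 and 7.70 on the WT arrays and 8.42 and 8.32 on the KO arrays, without passing (adjusted p = 0.0628). Kcna5, a voltage-gated channel, read 6.20 and 6.25 on the WT arrays and 5.35 and 5.35 on the KO arrays and fell by 0.88 (SE 0.13, limma adjusted p = 0.0187). Kcnn2, a small-conductance calcium-activated channel, fell by 0.88 (SE 0.16, limma adjusted p = 0.0389). The cation channel Trpm3 read 5.50 and 5.50 on the WT arrays and 4.61 and 4.50 on the KO arrays and fell by 0.95 (SE 0.14, limma adjusted p = 0.0186). Over the 4 reduced fits, 0, 1, 0 and 1 of the list passed.

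Among 35 genes of vasoactive, prostanoid and nitric oxide signalling, 3 fell and 1 rose, and the median was -0.14. Npy1r, the Y1 receptor through which neuropeptide Y constricts arteries, read 9.33 and 8.82 on the WT arrays and 7.66 and 7.32 on the KO arrays and fell 3.01-fold (SE 0.18 log2, limma adjusted p = 0.00893). Its ligand Npy, made by sympathetic neurons, read 7.40 and 8.51 on the WT arrays and 8.28 and 8.98 on the KO arrays with overlapping groups. Gucy1a1, a subunit of the soluble guanylate cyclase that senses nitric oxide, read 11.01 and 10.96 on the WT arrays and 10.36 and 10.54 on the KO arrays and fell by 0.54 (SE 0.11, limma adjusted p = 0.0472). Pde5a, which breaks down the cyclic GMP that enzyme makes, read 9.32 and 9.38 on the WT arrays and 8.71 and 8.80 on the KO arrays and fell by 0.60 (SE 0.10, limma adjusted p = 0.0305). Ptgs2 (cyclooxygenase 2, the inducible prostanoid enzyme) read 4.87 and 4.93 on the WT arrays and 6.32 and 5.78 on the KO arrays. It was the 1 that rose, 2.22-fold (SE 0.18 log2, limma adjusted p = 0.0266), with KO pool 1 well above KO pool 2. With 1 array left out, 0, 1, 1 and 1 of the list passed.

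Genes of TGF-beta and BMP signalling that passed were mostly higher, 5 of 46 up and 1 down. That is 13.04% called, against 2.28% of all genes, with a median of 0.05. Bmp3, a ligand that antagonizes other BMPs, read 7.17 and 6.88 on the WT arrays and 8.73 and 8.37 on the KO arrays and rose 2.87-fold (SE 0.15 log2, limma adjusted p = 0.00562). Tgfb3, a TGF-beta ligand, rose by 0.69 (SE 0.14, limma adjusted p = 0.0472), and is named with its value seen. Of the feedback inhibitors, Fstl3 (an activin trap) read 8.30 and 8.34 on the WT arrays and 8.97 and 9.01 on the KO arrays and rose by 0.67 (SE 0.09, limma adjusted p = 0.0164). Smad6, which blocks BMP receptors, read 7.46 and 7.71 on the WT arrays and 8.33 and 8.37 on the KO arrays and rose by 0.77 (SE 0.12, limma adjusted p = 0.0225), and Pmepa1, which blocks SMAD signalling, by 0.59 (limma adjusted p = 0.0469). Bmp2, a pro-osteogenic ligand, read 4.80 and 4.93 on the WT arrays and 4.27 and 3.81 on the KO arrays, near the level at which genes were set aside as dim (4.11), and fell by 0.83 (limma adjusted p = 0.0469). Skil, another SMAD repressor, was higher by 0.62 without passing (adjusted p = 0.0619). In the 4 fits with an array left out, 1 of the list passed each time.

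The insulin-like growth factor genes that passed were binding proteins. Igfbp2 read 8.04 and 7.84 on the WT arrays and 9.83 and 9.72 on the KO arrays and rose 3.57-fold (SE 0.19 log2, limma adjusted p = 0.00564). Igfbp1 read 5.48 and 5.50 on the WT arrays and 6.73 and 6.88 on the KO arrays and rose 2.5-fold (SE 0.14 log2, limma adjusted p = 0.00613). Igfbp1 is made in liver and in hypoxic or starved cells, and hepatocyte transcripts were also higher on these KO arrays, as given below. They were 2 of 20 tested, no member fell, and the list median was -0.07. Igf2, the main fetal growth factor of the family, was 10.14 and 10.01 on the WT arrays and 10.37 and 10.33 on the KO arrays and did not pass (adjusted p = 0.201). With WT pool 1 left out none of the list passed, and with each of the other arrays left out both did.

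Of 40 genes of the FGF, PDGF, hedgehog and pleiotrophin families, 2 rose and 2 fell. The receptor Ptprz1, a phosphatase bound by pleiotrophin, read 8.70 and 8.82 on the WT arrays and 9.85 and 9.65 on the KO arrays and rose 1.99-fold (SE 0.11 log2, limma adjusted p = 0.00691), while its ligand Ptn read 9.03 and 8.99 on the WT arrays and 8.51 and 8.31 on the KO arrays and fell by 0.60 (SE 0.11, limma adjusted p = 0.0349). Fgf18 rose by 0.75 (SE 0.12, limma adjusted p = 0.0305). Pdgfc, a ligand of the PDGF alpha receptor, read 7.79 and 7.70 on the WT arrays and 6.94 and 7.07 on the KO arrays and fell by 0.74 (SE 0.12, limma adjusted p = 0.029), and Pdgfra, that receptor, was lower by a difference of -0.54 without passing (adjusted p = 0.0642). Under the left-out fits, 0, 1, 1 and 1 of the list passed. Wnt16 (a Wnt ligand) read 5.60 and 5.66 on the WT arrays and 7.06 and 6.90 on the KO arrays and rose 2.55-fold (SE 0.12 log2, limma adjusted p = 0.00407). It stood outside the list of 28 Wnt ligands and modulators, none of which passed (limma, 5 had an unadjusted p under 0.05).

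Of 26 sterol and fatty acid synthesis genes 11 rose (42.3%, against 1.46% of all genes) and none fell, with a median of 0.61. In 25 of 26 members both KO pools lay above both WT pools, against 25.6% of all genes. The products of these genes are enzymes of the mevalonate and cholesterol path and of fatty acid synthesis, which cells switch on together through SREBP factors when membrane sterol falls. Hmgcs1 (HMG-CoA synthase, an early step) read 8.10 and 8.13 on the WT arrays and 9.34 and 9.35 on the KO arrays, pools of each genotype nearly equal, and rose 2.34-fold (SE 0.15 log2, limma adjusted p = 0.011). Later steps were higher as well. Sqle (squalene epoxidase) read 6.64 and 7.36 on the WT arrays and 8.37 and 8.53 on the KO arrays, Cyp51 (lanosterol demethylase) 6.43 and 6.64 on the WT arrays and 7.89 and 7.66 on the KO arrays, and Msmo1 (the sterol methyl oxidase) 5.71 and 5.36 on the WT arrays and 7.02 and 7.14 on the KO arrays. They rose by 1.45, 1.24 and 1.54 (SE 0.24, 0.15 and 0.18, limma adjusted p = 0.0311, 0.00955 and 0.00818). Sc5d, a sterol desaturase named after its value was seen, rose by 1.06 (limma adjusted p = 0.0121).

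Insig1, which holds the SREBP complex in the endoplasmic reticulum and is itself an SREBP target, read 7.53 and 7.64 on the WT arrays and 8.65 and 8.56 on the KO arrays and rose 2.03-fold (SE 0.11 log2, limma adjusted p = 0.00691). Fasn, the fatty acid synthase, read 7.36 and 7.42 on the WT arrays and 8.24 and 8.44 on the KO arrays and rose by 0.95 (SE 0.12, limma adjusted p = 0.011). Chosen after their values were seen, the other called members were the enzymes Fdps (1.35) and Hsd17b7 (1.11), the sterol carrier Stard4 (0.63) and Srebf2 (0.80), the SREBP factor of the sterol branch. Dhcr7, the final reductase, was 5.78 and 5.83 on the WT arrays and 6.21 and 6.53 on the KO arrays and missed the threshold (adjusted p = 0.0539). Leaving out each array in turn, 1, 4, 3 and 2 of the 26 passed while the median stayed between 0.59 and 0.66. The mean level of the 26 synthesis genes was 6.91 and 6.97 on the WT arrays and 7.62 and 7.65 on the KO arrays. Hepatocytes make sterols too, and hepatocyte transcripts were also higher on the KO arrays, as given below; their part in this result was not tested.

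To show where SREBP could act, the sterol regulatory element (TCACNCCAC, both strands) was searched in the RefSeq promoter windows (GRCm38.p6, 250 bases before to 50 after a start), and the part of the Hmgcs1 promoter that held it is printed with the match in capitals. It lies at chr13:119690174-119690262 on the plus strand, the match beginning 137 bases before the start.
Hmgcs1: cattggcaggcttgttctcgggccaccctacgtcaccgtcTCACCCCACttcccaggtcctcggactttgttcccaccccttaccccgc
This exact spelling was found in 1 of 20 members with a window (5.0%), against 1.5% of tested genes. A window without a match says only that these letters are not in it.

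Hypoxia and glycolysis genes rose in 4 of 36 cases (11.11%, against 1.46% of all genes), with none lower and a median of 0.26. Besides P4ha1 and Plod2, described above, Bhlhe40 (a hypoxia and clock repressor) read 6.95 and 6.35 on the WT arrays and 7.88 and 7.62 on the KO arrays and rose 2.14-fold (SE 0.18 log2, limma adjusted p = 0.0311). Pfkl, a phosphofructokinase of glycolysis, read 6.27 and 6.34 on the WT arrays and 6.85 and 7.01 on the KO arrays and rose by 0.62 (SE 0.12, limma adjusted p = 0.0433). Slc2a1, the glucose carrier, was 7.76 and 7.53 on the WT arrays and 8.23 and 8.27 on the KO arrays, apart but not past the threshold (adjusted p = 0.0512), and so was the lactate exporter Slc16a3 (adjusted p = 0.0608). In 22 of 36 members the KO arrays lay above the WT arrays without overlap, against 25.6% of all genes. Over the 4 reduced fits, 1, 2, 1 and 2 of the list passed. Of oxidative phosphorylation genes 0 of 35 passed in limma, 10 had an unadjusted p under 0.05, 25 of 35 had KO pools below WT pools without overlap (25.5% of all genes), and the median was -0.19.

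The core of the hypoxia response element (ACGTG, both strands) stood in the windows of 23 of 32 list members (71.9%), against 26.8% of tested genes. P4ha1 was the called member that held it, and its match is printed in capitals from chr10:59323240-59323324 on the plus strand, 16 bases before the start.
P4ha1: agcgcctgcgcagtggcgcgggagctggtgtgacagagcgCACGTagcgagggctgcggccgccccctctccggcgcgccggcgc
The motif is short, and a match is no evidence of binding.

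Of 35 cell cycle genes 5 rose (14.29%, against 1.46% of all genes) and none fell, with a median of 0.27. MCM proteins, the subunits of the helicase that unwinds DNA at replication origins, made up 4 of these 5. Mcm2 read 6.16 and 6.15 on the WT arrays and 7.44 and 7.21 on the KO arrays and rose 2.25-fold (SE 0.12 log2, limma adjusted p = 0.00577). Mcm5 read 5.77 and 6.07 on the WT arrays and 7.32 and 7.09 on the KO arrays and rose 2.43-fold (SE 0.15 log2, limma adjusted p = 0.00795). Mcm3 and Mcm4 rose by 0.91 and 0.79 (SE 0.14 and 0.15, limma adjusted p = 0.0257 and 0.0422). All KO pools of the 4 genes were above all WT pools, as in every gene called higher, and KO pool 1 was the higher in each. Mcm6 and Mcm7, named to complete the hexamer after the values were seen, were higher by 0.61 and 0.28 without passing (adjusted p = 0.0563 and 0.306).

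Outside the helicase, Ccnd2 (cyclin D2, which starts the cycle) read 8.85 and 8.90 on the WT arrays and 9.55 and 9.45 on the KO arrays and rose by 0.62 (SE 0.10, limma adjusted p = 0.0279), and Ccne1 (cyclin E1) missed the threshold at 0.57 (adjusted p = 0.0503). The general proliferation marker Mki67 and the mitotic kinase Cdk1, chosen after their values were seen, differed by 0.28 (95% interval 0.01 to 0.54) and 0.07 (95% interval -0.19 to 0.33). With 1 array left out, 0, 2, 2 and 2 of the 35 passed. E2F sites (TTTGGCGC or TTTCCCGC, both strands, a search added after seeing the data) were found in the windows of 4 of 27 cell cycle genes that had one (14.8%), against 2.9% of tested genes, and all 4 were among the 5 MCM genes with a window. The called genes Mcm3 and Mcm5 held them, and the sites are in capitals below. They lie at chr1:20820263-20820333 on the minus strand, where the matches begin 19 and 38 bases after the start, and at chr8:75109320-75109407 on the plus strand, 149 bases before it. A match can read as spelled or as its reverse complement.
Mcm3: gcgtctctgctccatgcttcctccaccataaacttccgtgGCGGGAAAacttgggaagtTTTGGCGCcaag
Mcm5: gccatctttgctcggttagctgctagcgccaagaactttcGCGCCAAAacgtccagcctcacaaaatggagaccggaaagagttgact

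Stress and early response genes that passed were higher. Of 31 unfolded protein and amino acid stress genes, 3 rose (median 0.18): Hyou1, an endoplasmic reticulum chaperone, which read 6.54 and 6.60 on the WT arrays and 7.40 and 7.30 on the KO arrays and rose by 0.78 (SE 0.10, limma adjusted p = 0.0125), Sdf2l1 (0.79), a cofactor of the same compartment, and Shmt2 (0.70), a mitochondrial serine enzyme. Of 30 immediate early genes, 3 rose (median 0.32). Egr1, a transcription factor induced within minutes by stretch or serum, read 6.85 and 7.21 on the WT arrays and 7.96 and 8.79 on the KO arrays and rose 2.54-fold (SE 0.25 log2, limma adjusted p = 0.0389), with KO pool 2 the higher. Ier3 rose by 0.81 (SE 0.12, limma adjusted p = 0.0209) and Gadd45b by 0.73 (limma adjusted p = 0.0472). In the 4 fits with an array left out, none of the stress list passed, and 0, 0, 1 and 0 of the immediate early list.

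Macrophage markers passed in 5 of 31 cases (16.13%, against 2.28% of all genes), all higher, with a median of 0.20. F13a1, a coagulation transglutaminase made by resident macrophages, read 8.78 and 8.88 on the WT arrays and 9.68 and 9.63 on the KO arrays and rose by 0.82 (SE 0.10, limma adjusted p = 0.0113). Adgre1, the F4/80 antigen, read 6.81 and 6.70 on the WT arrays and 7.61 and 7.67 on the KO arrays and rose by 0.89 (SE 0.15, limma adjusted p = 0.0327). Cx3cr1, the fractalkine receptor, rose by 0.85 (limma adjusted p = 0.0249), Cd68, a lysosomal marker, by 0.63 (0.0454), and Marco, a scavenger receptor, by 0.85 (0.0164). KO and WT pools of all 5 were apart, as in every called gene. The list's mean level was 7.35 and 7.38 on the WT arrays against 7.65 and 7.56 on the KO arrays. No member was called higher when any 1 descending array was left out, and 1, Lyz1 (a lysozyme also made in lung, named after its value was seen), was called lower without WT pool 1. Lyz1 read 5.28 and 6.76 on the WT arrays and 4.16 and 4.89 on the KO arrays, highest on WT pool 2, and did not pass with all arrays (adjusted p = 0.103).

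Inflammatory mediators were higher in a few cases. Il18 and Ccl8, a cytokine and a chemokine, rose by 0.80 and 0.89 (SE 0.13 and 0.16, limma adjusted p = 0.0311 and 0.0343). They were 2 of 36 in their list (5.56% called, against 2.28% of all genes). Oas2 and Irf7, both induced by interferon, rose by 0.78 and 0.65 (SE 0.13 and 0.13, limma adjusted p = 0.0301 and 0.0479), 2 of 24. Of neutrophil markers 0 of 22 passed in limma, with 10 at an unadjusted p under 0.05 and a median of 0.42. Their mean level was 5.43 and 5.58 on the WT arrays and 5.82 and 6.10 on the KO arrays, so KO pool 2 was highest, and 1 member, the granule protein Ngp, passed without KO pool 1. Camp, a granule peptide, was the closest with 4.70 and 4.90 on the WT arrays and 5.67 and 6.36 on the KO arrays (adjusted p = 0.0512). Il18, Ccl8, Oas2 and Irf7 passed in none of the 4 fits with an array left out, while of the mediators Cxcl15, which is also on the lung list, was called lower without WT pool 1 and Ccl7 higher without KO pool 2 (both named after their values were seen). None of 9 platelet, 13 erythroid or 19 lymphocyte and thymus markers passed in limma (0, 3 and 2 at an unadjusted p under 0.05).

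Of 16 capillary fatty acid uptake genes 2 fell and none rose, with a median of -0.32. Cd36, the fatty acid translocase, read 10.45 and 10.39 on the WT arrays and 8.87 and 9.22 on the KO arrays and fell 2.58-fold (SE 0.23 log2, limma adjusted p = 0.0309). Vldlr, the VLDL receptor, read 7.97 and 7.79 on the WT arrays and 6.96 and 7.10 on the KO arrays and fell by 0.85 (SE 0.11, limma adjusted p = 0.0143). Lpl, lipoprotein lipase, was 10.28 and 10.10 on the WT arrays and 9.44 and 9.63 on the KO arrays and did not pass (adjusted p = 0.0658). Neither call remained with any 1 array left out. Of 32 endothelial genes 1 fell and 1 rose, with a median of -0.19, and both were VEGF receptors: Kdr read 8.01 and 7.95 on the WT arrays and 7.46 and 7.41 on the KO arrays and fell by 0.54 (SE 0.11, limma adjusted p = 0.0445), while Flt1 read 7.63 and 7.73 on the WT arrays and 8.64 and 8.47 on the KO arrays and rose by 0.87 (SE 0.16, limma adjusted p = 0.0393). In 21 of the 32 the KO pools were below the WT pools without overlap, against 25.5% of all genes, including the pan-endothelial Pecam1 (10.63 and 10.59 on the WT arrays and 10.31 and 10.33 on the KO arrays, adjusted p = 0.185), given as a defining marker. Neither receptor passed with any 1 array left out.

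Of the genes typical of fat, the list had a median of -0.48, with 1 of 21 lower and 2 higher. Cidea, a lipid droplet protein of brown fat, read 7.71 and 7.08 on the WT arrays and 6.26 and 6.42 on the KO arrays and fell by 1.06 (SE 0.21, limma adjusted p = 0.0463). Fasn, which rose, is shared with the synthesis list. Prdm16, a brown fat regulator also expressed in arterial cells, rose by 0.47 (limma adjusted p = 0.0473), but by 0.29 (adjusted p = 0.203) when its probe sets were averaged. Ucp1, which defines brown fat, read 9.13 and 7.93 on the WT arrays and 5.99 and 6.59 on the KO arrays. The difference of -2.24 did not pass (SE 0.60, limma adjusted p = 0.0954). Adipoq, made by all fat cells, was 8.97 and 8.83 on the WT arrays and 7.80 and 8.27 on the KO arrays (adjusted p = 0.0725). The whole list's mean level was 7.16 and 6.99 on the WT arrays and 6.49 and 6.82 on the KO arrays; how far fat left on the dissected vessel moved these genes and the fatty acid uptake genes was not tested. Leaving out each array in turn, 0, 1, 1 and 0 of the list passed.

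Markers of the adventitia were mixed, 2 of 24 higher and 3 lower, with a median of -0.06. Dpt (dermatopontin, a collagen-binding protein of fibroblasts) read 11.72 and 11.70 on the WT arrays and 11.18 and 10.95 on the KO arrays and fell by 0.65 (SE 0.11, limma adjusted p = 0.0331). Adh1 fell by 0.90 (limma adjusted p = 0.0459), and by 0.53 as the mean of its probe sets (adjusted p = 0.106). Tcf21, a mesenchymal transcription factor, fell by 0.55 (limma adjusted p = 0.0465). It is also the only 1 called of 13 lung mesenchyme and capillary genes, of which 12 were below 0, with a median of -0.21. In 7 of those 13 the KO pools lay below the WT pools without overlap, against 25.5% of all genes. The part of lung tissue in this fall was not tested. Pi16, a marker of adventitial fibroblasts, rose by 0.53 (limma adjusted p = 0.0479), and the homeobox gene Meox1 read 6.51 and 6.67 on the WT arrays and 7.64 and 7.43 on the KO arrays and rose by 0.95 (SE 0.12, limma adjusted p = 0.0113). Over the 4 reduced fits, 0, 0, 0 and 1 of the list passed.

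**Figure D3:**
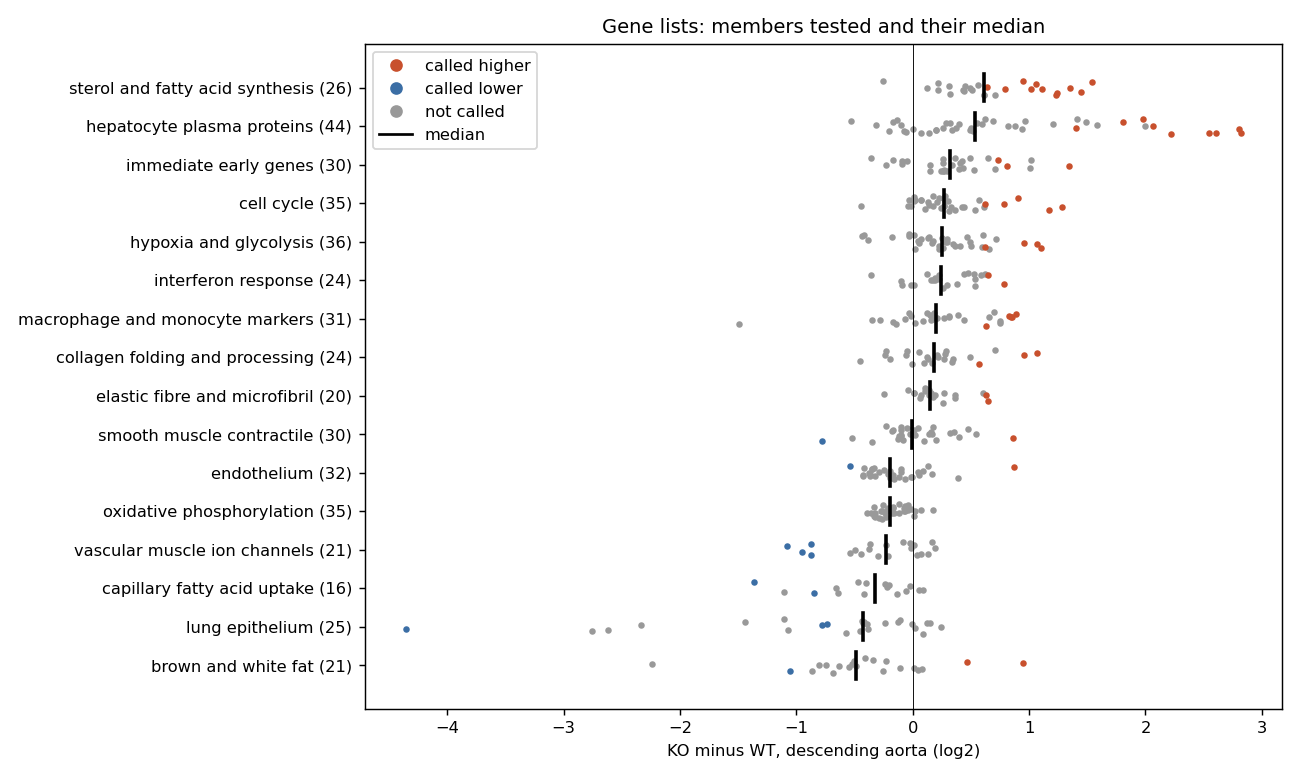
KO minus WT difference (x axis, log2) of every tested member of 16 gene lists (y axis, number tested in brackets), with called genes in orange (higher) or blue (lower), the others in grey and a bar at the list median. The sterol list has its median at 0.61 and 11 called members, and the contractile list is centred at -0.01.

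Some of the largest differences were in genes of liver and lung. Of 44 plasma proteins secreted by hepatocytes, 9 rose (20.45%, against 1.46% of all genes) and none fell, with a median of 0.535. Alb (albumin) read 7.61 and 7.20 on the WT arrays and 9.05 and 10.20 on the KO arrays, a 4.67-fold rise (SE 0.31 log2, limma adjusted p = 0.0169). Afp, the fetal albumin relative, read 5.89 and 5.09 on the WT arrays and 7.40 and 8.80 on the KO arrays and rose 6.1-fold (SE 0.41 log2, limma adjusted p = 0.0271). Fgb, a fibrinogen chain, read 5.78 and 5.34 on the WT arrays and 7.53 and 8.68 on the KO arrays and rose 5.82-fold (SE 0.33 log2, limma adjusted p = 0.0127), and Serpina1d, an antitrypsin, read 3.79 and 4.38 on the WT arrays and 6.36 and 7.42 on the KO arrays and rose 6.99-fold (SE 0.31 log2, limma adjusted p = 0.00703). The WT values of Serpina1d lie around the level at which genes were set aside as dim (4.11), so the size of its fold is uncertain. In all 4 KO pool 2 was well above KO pool 1, which itself was above both WT pools. The mean over the 53 matched plasma protein genes was 4.91 and 4.88 on the WT arrays, 5.30 on KO pool 1 and 5.93 on KO pool 2.

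Of the 4 fits with an array left out, the 1 without KO pool 2 gave the smallest list median. Without KO pool 2, 5 of the 44 passed and the median was 0.28. Fgg, the gamma chain of fibrinogen, read 5.45 and 4.82 on the WT arrays and 6.97 and 8.94 on the KO arrays and rose by 2.82, but by 1.84 (adjusted p = 0.0396) without KO pool 2, and Serpina1e by 1.40 and by 0.86 (adjusted p = 0.0502). The Serpina1 genes are close copies of each other, so their probe sets may share signal. Without KO pool 1, where KO pool 2 was the only KO array, the median of the 44 was 0.871. Without WT pool 1 none passed and without WT pool 2 only 1, Serpina1d. Of 33 hepatocyte enzymes, receptors and transcription factors 0 passed in limma, with 9 at an unadjusted p under 0.05 and a median of 0.07. Without KO pool 1, 3 of the 33 were called higher (Cps1, Fabp1 and Pzp, named after their values were seen) and the median was 0.14, and without each of the other arrays none was called. The mean level of 55 matched genes of that kind was 4.53 and 4.46 on the WT arrays, 4.53 on KO pool 1 and 4.77 on KO pool 2. Fabp1, the liver fatty acid binding protein, read 4.26 and 4.25 on the WT arrays and 5.17 and 7.08 on the KO arrays, so its rise lay mainly on KO pool 2 (adjusted p = 0.0882).

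**Figure D4:**
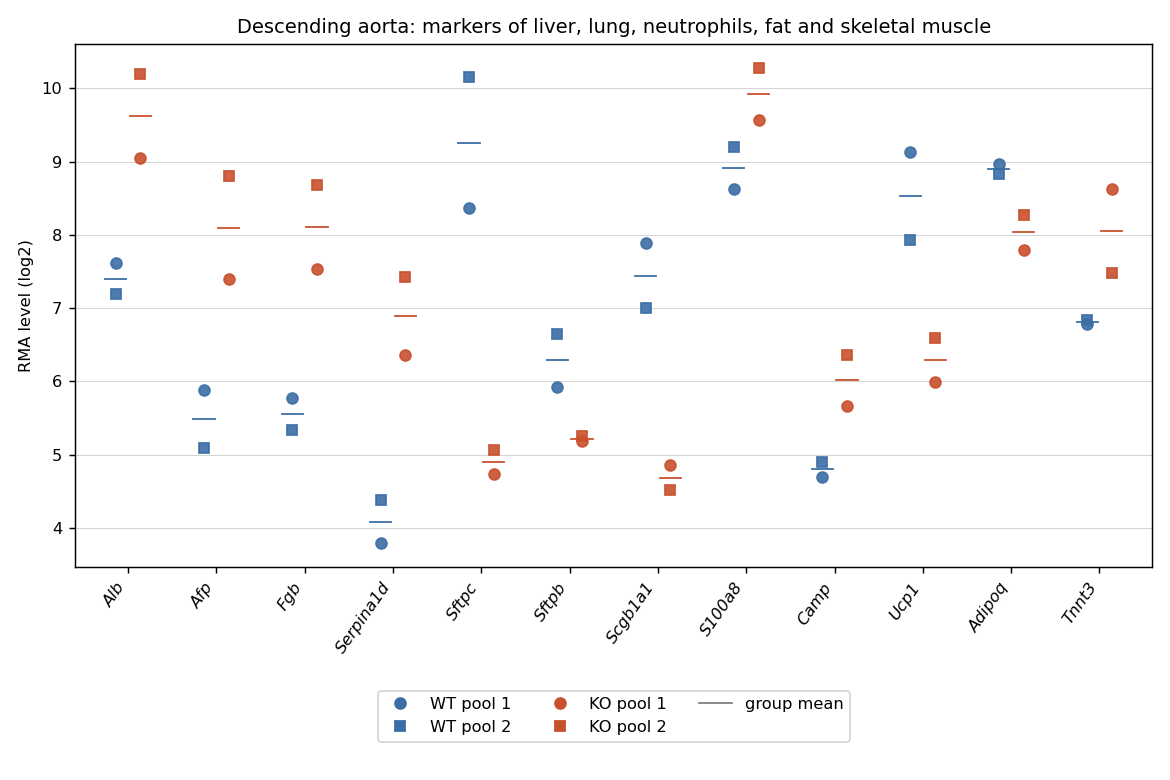
RMA level (y axis, log2) on each descending array of markers of liver (Alb, Afp, Fgb, Serpina1d), lung (Sftpc, Sftpb, Scgb1a1), neutrophils (S100a8, Camp), fat (Ucp1, Adipoq) and skeletal muscle (Tnnt3), with WT pools in blue, KO pools in orange, circles for pool 1, squares for pool 2 and bars at group means. Alb reaches 10.20 on KO pool 2, and Sftpc reads 8.37 and 10.15 on the WT arrays against 4.74 and 5.07 on the KO arrays.

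The HNF1 core motif (GTTAAT, both strands), part of the element through which the liver factor HNF1 acts, was found in the windows of 15 of 40 plasma protein genes (37.5%), 6 of them among the 9 called, against 5.9% of tested genes. Stretches of the windows of 4 called genes are printed because these genes moved together, with the motif in capitals. They lie at chr5:90460798-90460883 (plus strand), chr5:90490569-90490654 (plus), chr3:83049847-83049932 (minus) and chr12:103773604-103773689 (minus), in the order printed, and the sites begin 32, 105, 29 and 16 bases before the start.
Alb: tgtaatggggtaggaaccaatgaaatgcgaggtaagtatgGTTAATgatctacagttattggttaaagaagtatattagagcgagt
Afp: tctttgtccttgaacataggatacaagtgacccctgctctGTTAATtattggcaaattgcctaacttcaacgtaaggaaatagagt
Fgb: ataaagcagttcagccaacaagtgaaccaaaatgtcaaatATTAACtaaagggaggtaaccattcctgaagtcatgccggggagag
Serpina1d: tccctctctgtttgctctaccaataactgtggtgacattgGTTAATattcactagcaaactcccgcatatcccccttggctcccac
The presence of the letters describes the windows and does not show that the factor acted in this tissue.

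Lung genes differed the other way. Sftpc, the surfactant protein of alveolar type II cells, read 8.37 and 10.15 on the WT arrays and 4.74 and 5.07 on the KO arrays. Both WT pools were far above both KO pools, WT pool 2 by the most, and the difference of -4.35 (SE 0.46, limma adjusted p = 0.00577) was -3.46 without WT pool 2 and -5.24 without WT pool 1. Nkx2-1, a transcription factor of lung epithelium, read 4.84 and 4.83 on the WT arrays and 3.99 and 4.12 on the KO arrays and fell by 0.78 (SE 0.11, limma adjusted p = 0.0161), with KO values at the dim level of 4.11, so the size of the fall is uncertain. Muc1, an epithelial mucin, fell by 0.73 (limma adjusted p = 0.0422). They were 3 of 25 lung epithelium genes, none rose, and the median was -0.43. Scgb1a1, the club cell protein, read 7.89 and 7.0 on the WT arrays and 4.86 and 4.52 on the KO arrays, the reverse order of WT pools from Sftpc, and did not pass (adjusted p = 0.161). The mean of 7 surfactant and lamellar body genes, a list added after seeing the data, was 5.51 and 6.23 on the WT arrays and 4.73 and 4.91 on the KO arrays. On the ascending arrays of both genotypes the same mean was 4.69 to 4.81. Sftpc passed in each of the 4 fits with an array left out and Nkx2-1 and Muc1 in none, while Sftpa1 and Cxcl15, also lung genes and named after their values were seen, were called lower without WT pool 1.

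Skeletal muscle genes had a mean of 5.69 and 5.79 on the WT arrays, 6.39 on KO pool 1 and 5.70 on KO pool 2. Of 25 tested, 17 were above 0 and 8 below, with a median of 0.28, which was -0.11 without KO pool 1. Only Art3, an ADP-ribosyltransferase family gene, passed (4.0% called, against 2.28% of all genes), with the sign opposite to that of the median over all arrays. It read 7.47 and 7.23 on the WT arrays and 6.09 and 6.18 on the KO arrays. The fall was 1.22 (SE 0.25, limma adjusted p = 0.0469). None of 19 cardiac muscle genes passed in limma (1 at an unadjusted p under 0.05), but 18 were below 0 and the median was -0.35. In 10 of the 19 the KO pools lay below the WT pools without overlap, against 25.5% of all genes. Of 20 genes of sympathetic neurons and Schwann cells 0 passed in limma (1 at an unadjusted p under 0.05). The part that tissue of liver, lung, fat or muscle had in the other results was not tested.

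Further large changes fell outside the lists. Gna14, a G protein alpha subunit of the Gq family, read 7.05 and 7.38 on the WT arrays and 9.04 and 8.63 on the KO arrays and rose 3.06-fold (SE 0.17 log2, limma adjusted p = 0.00564). Kank4, a cytoskeletal adaptor, read 5.77 and 5.69 on the WT arrays and 7.07 and 7.17 on the KO arrays and rose 2.62-fold (SE 0.13 log2, limma adjusted p = 0.00423). Apof, an apolipoprotein made by the liver, rose by 1.57 (limma adjusted p = 0.0143). Among falls, Arap2, a GTPase activating protein, fell by 1.29 (SE 0.16, limma adjusted p = 0.011). Clca3a2 read 10.67 and 10.65 on the WT arrays and 9.58 and 9.56 on the KO arrays and fell by 1.09 (SE 0.10, limma adjusted p = 0.00423). Bche, the butyrylcholinesterase, read 8.12 and 8.09 on the WT arrays and 6.93 and 7.21 on the KO arrays and fell by 1.04 (limma adjusted p = 0.013), and Etv1, an ETS transcription factor, fell by 1.02 (0.0309). Klhl24, a ubiquitin ligase adaptor, fell by 1.12 (0.0203), and the GABA receptor subunits Gabre and Gabrq fell by 0.98 and 1.07 (0.037 and 0.0483). Gabrq fell by 0.69 (adjusted p = 0.191) without WT pool 1. In the smaller lists, Cd59a, a complement inhibitor, fell by 0.59 (0.0463), 1 of 17 complement and acute phase genes. Hsph1, a cochaperone, rose by 0.75 (0.029), 1 of 14 heat shock genes. Rbp7 was the only 1 of 17 retinoid carriers and enzymes called, and it fell, while the list median was 0.16. None of 15 mesothelial, 10 oesophageal, 9 lymphatic or 7 mast cell markers passed in limma (2, 1, 2 and 2 at an unadjusted p under 0.05). Their medians were -0.09, 0.02, 0.09 and -0.48. All 7 mast cell markers were below 0, and in 5 of the 7 the KO pools lay below the WT pools without overlap, against 25.5% of all genes. With any 1 descending array left out, no member passed of these 4 lists, nor of the complement, heat shock, basement membrane, Wnt, oxidative phosphorylation, platelet, erythroid, lymphocyte, skeletal muscle, cardiac muscle and nerve lists.

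Of 225 tested microRNA precursors, 2 were called and both fell, against 0.823% of all genes called lower. They are named after their values were seen. Mir99a read 7.79 and 8.08 on the WT arrays and 5.93 and 5.97 on the KO arrays, both KO pools below both WT pools, and fell 3.95-fold (SE 0.16 log2, limma adjusted p = 0.00407). Mir23b read 4.90 and 5.12 on the WT arrays and 4.11 and 4.39 on the KO arrays and fell by 0.76 (SE 0.15, limma adjusted p = 0.0457), with a KO value at the dim level. The mature forms are printed from RefSeq (GRCm38.p6), with the seed (bases 2 to 8) in capitals, so that a reader can see which microRNAs share a seed. Those of Mir99a lie at chr16:77598940-77598961 and chr16:77598977-77598997, those of Mir99b at chr17:17830194-17830215 and chr17:17830232-17830253, and the 5p form of Mir23b at chr13:63300492-63300512, all on the plus strand.
mmu-miR-99a-5p: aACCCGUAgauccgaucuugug
mmu-miR-99a-3p: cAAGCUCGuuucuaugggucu
mmu-miR-99b-5p: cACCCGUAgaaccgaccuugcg
mmu-miR-99b-3p: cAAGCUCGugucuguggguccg
mmu-miR-23b-5p: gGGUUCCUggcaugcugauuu
The 5p forms of 99a and 99b share the seed ACCCGUA and their 3p forms the seed AAGCUCG. The 3p form of Mir23b is not printed here. Mir99b read 7.19 and 7.16 on the WT arrays and 6.98 and 7.11 on the KO arrays and did not pass (adjusted p = 0.727), and neither did Mir99ahg, the gene named as host of Mir99a (6.46 and 6.77 on the WT arrays and 6.19 and 6.55 on the KO arrays, adjusted p = 0.533). The probe sets are annotated to the precursor genes, so these values need not follow the mature RNAs. Of 72 small nucleolar, Cajal body and Y RNAs, 8 were called, all higher, against 1.46% of all genes called higher. Among them was Rny1 (a Y RNA), which read 5.65 and 5.91 on the WT arrays and 7.08 and 7.36 on the KO arrays. It rose 2.71-fold (limma adjusted p = 0.00508).

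The differences for the same contrast in the ascending aorta came from 4 other arrays, so the differences share no array. The labels leave unsaid whether the segments share pups. Of the 380 genes called in descending tissue, 370 (97.4%) had the same sign in ascending tissue, against 67.6% of all genes tested. In ascending tissue 164 of the 380 were called with that sign, against 428 of all 16638 genes tested. The spread of each gene was estimated from the arrays of both segments together, so a small spread favours a call in each segment. The calls in the segments are therefore not independent of each other. The median difference of the 243 higher genes was 0.74 in descending and 0.53 in ascending tissue, and that of the 137 lower genes -0.70 and -0.54. These medians are of genes chosen in the descending arrays and are given as a description. Some called genes had little difference in ascending tissue. Smad6 was 0.77 in descending and -0.03 in ascending tissue, Fbn2 0.64 and -0.04, Hapln1 -1.17 and -0.05, and Sftpc -4.35 and 0.04. The plasma proteins Alb and Afp differed by 2.22 and 2.61 in descending and by 0.86 and 0.40 in ascending tissue.

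No gene passed the test of the difference between the segments' KO effects (limma interaction, 0 of 16638 genes, 0%, with 932 at an unadjusted p under 0.05), so no KO effect was shown to differ between the segments. The count was 2 without WT pool 1, 1 without WT pool 2, 11 without KO pool 1 and 0 without KO pool 2. The smallest p-values belonged to Ccr2, Csta3, Ptgs2, Sftpc and Clec4d, none called. Ptgs2 rose by 1.15 in descending and 2.95 in ascending tissue, an interaction of -1.80 (SE 0.26, limma adjusted p = 0.439). Sftpc had an interaction of -4.39 (SE 0.65, limma adjusted p = 0.439). The leukocyte genes Ccr2, Csta3 and Clec4d differed by -0.03, 0.36 and -0.31 in descending tissue and by 1.08, 3.76 and 1.37 in ascending tissue (interaction limma adjusted p = 0.439, 0.439 and 0.469).

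**Figure D5:**
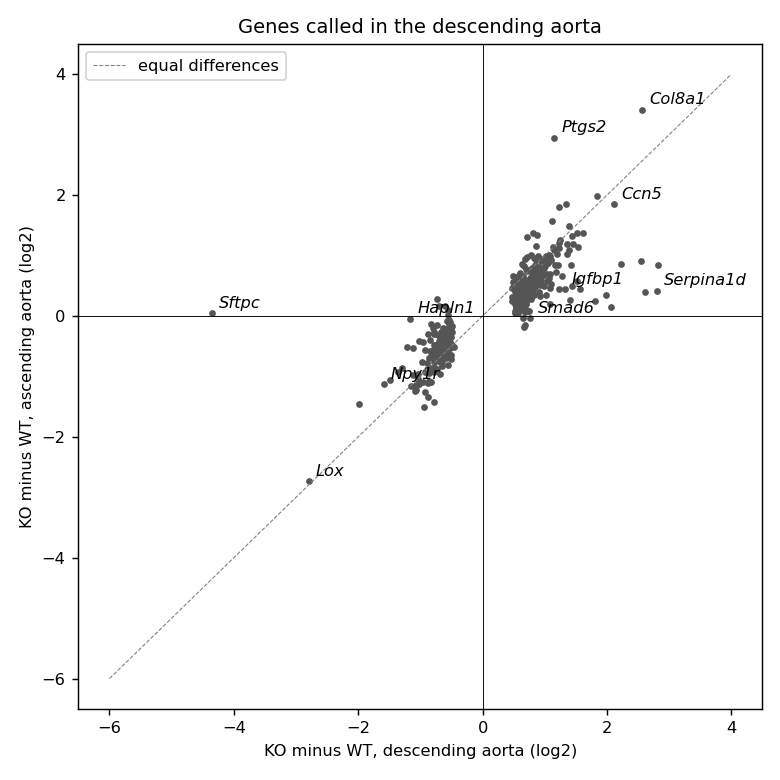
Each point is 1 of the 380 genes called in the descending aorta, at its KO minus WT difference in descending (x axis, log2) and ascending tissue (y axis, log2), with a dashed line where both are equal. Most points lie in the quadrants of equal sign (370 of 380), and Sftpc at -4.35 and 0.04 stands apart.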

How the data were processed

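Total RNA from pools of 8 p0 pups was hybridised to 8 Affymetrix arrays in 4 groups of 2 arrays (KO and WT, ascending and descending aorta). The deposited values are log2 levels that the authors made with RMA in Affymetrix Expression Console, per the submitters' processing notes, with versions not given in the sources used here. RMA shares a distribution across arrays, so a shift common to most genes would not show. Of 41345 probe sets, 23525 carried exactly 1 gene symbol in the platform annotation, 1810 several and 16010 none. Each of 22184 genes was represented by its brightest probe set (highest mean of the 8 arrays), and genes with a mean under the 25th percentile (4.11) were set aside.

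A model with 1 coefficient per group was fitted over all 8 arrays with limma 3.58.1 in R 4.3.3 (lmFit, eBayes, 4 residual degrees of freedom), and p-values were adjusted by Benjamini-Hochberg over all 16638 genes, with 0.05 as the threshold for a call. Figures used python 3.11.15 with pandas 2.3.3 and matplotlib 3.10.9. The fit was tested on simulated data. The members and lists were chosen with earlier results of these data known. Genes were picked by rule: lysyl oxidases, the 20 called genes that rose most and the 20 that fell most with non-overlapping arrays, the 10 of smallest p, in each list up to 6 of smallest p and 1 or more not called, and the 5 of smallest interaction p. Not every gene so picked is described, and some of the largest rises and falls are left out. Genes named from outside the rule are marked in the text. Promoter and microRNA sequences came from RefSeq tables (GRCm38.p6). Alternatives were the dim filter, the prior, the normalization, array weights, a replicate block, the probe set rule, a 1.2-fold test, the arrays fitted and each array left out.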

Additional observations from a re-analysis of the deposited data

How the results depend on the processing

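With 2 pools a group, few calls survived every setting. The 380 genes called in KO against WT descending aorta numbered 155 when dim genes were kept, 717 when those under the 50th percentile were dropped, 919 under a robust trended prior, 48 in the test against 1.2-fold and 105 when only the 4 descending arrays were fitted. Leaving out 1 array gave 20 to 226. Leaving out an ascending array gave 226 (WT) or 204 (KO). Cyclic loess, a shift to 1 median, array weights, the average of a gene's probe sets and separate tests of them gave 310 to 471. With the replicate number as a block, 200 genes were called, 189 of them shared with the 380; deviations of same-numbered arrays correlated at -0.095 to 0.126, so the numbers were not taken to pair the samples. The interaction count of 0 became 1 under the robust trended prior and 0 to 11 with 1 array left out. Of 117 called genes named in the text, none changed sign and 14 kept the call under all 19 alternatives. The sign turned for 4 genes that were not called: Acta2 to 0.011 with cyclic loess, and with 1 array left out Acta2 ranged from -0.071 to 0.030, Cdk1 from -0.023 to 0.159, Cnn1 from -0.088 to 0.123 and Eln from -0.017 to 0.155. The share of higher genes among those called was 63.9%, and 79.2% in the test against 1.2-fold. Dim genes, near background, are measured least well.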
